A study of Mus musculus with 564 samples.

Results

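The 1315 cis-regulatory elements (CREs) described here lost H3K27 acetylation (H3K27ac) within the first hour of lipopolysaccharide (LPS) and had it back by 4 h. They were chosen on the DMSO libraries alone. For each CRE, D is the log2 of the mean of both DMSO replicates at a time point, after adding 5, minus the same for the untreated (UT) DMSO replicates. A CRE was taken when D after LPS was -1 or lower at 30 min or 1 h and -0.2 or higher at 4 h. This held for 1315 of the 59190 CREs of the table, which is 2.22% of all and 12.8% of the 10299 CREs with the early loss. Another 6093 early losses were still at -1 or lower at 4 h, and these lasting losses serve below as the comparison.

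The cells were bone marrow-derived macrophages (BMDMs) of wild type C57/BL6 male mice 6 to 8 weeks old. All cultures, controls included, had been exposed for 1 h to DMSO or to 1 of 58 clinical kinase inhibitors (CKIs) before stimulation. They were then left untreated or given LPS, a bacterial ligand of TLR4, or interleukin-4 (IL-4), each at 10 ng/mL, for 30 min, 1 h, 2 h or 4 h. H3K27ac ChIP-seq gave 564 libraries, of which 18 were DMSO libraries in 9 groups of 2 and the rest came from CKI-treated cells, mostly 1 library per CKI and condition. The CKI libraries number 73 for UT, 62, 63, 59 and 57 for LPS at 30 min, 1 h, 2 h and 4 h, and 60, 59, 58 and 55 for IL-4. Nothing in the labels says whether libraries of a group came from separate mice or cultures, so the p-values measure the spread between libraries only.

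H3K27ac is deposited by acetyltransferases such as p300 and CBP and removed by histone deacetylases. It marks enhancers and promoters in use, and its level at a CRE commonly changes within minutes to hours when an inflammatory stimulus redirects transcription factors and their cofactors. In macrophages, PU.1, C/EBP, RUNX and AP-1 proteins hold many enhancers open before stimulation, NF-kB acts early after LPS, and interferon-β made by the cells acts in a second wave through STAT and IRF proteins.

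The values are read counts around ATAC-seq peaks that the authors scaled between libraries, and they are called scores here. The value of 1 read could be recovered for 16 DMSO and 531 CKI libraries, which held from 2346480 to 5407190 and from 172957 to 6004780 reads in CREs. Replicates correlated with a Pearson r of 0.959 to 0.982 over all CREs in the 9 DMSO pairs and of 0.552 to 0.960 in 36 pairs of repeated CKI libraries. The table lists the CKIs in 6 consecutive blocks of columns, of 8 or 10 CKIs each, and what the blocks stand for is not stated. Several libraries stood apart. The LPS 30 min library of PH797804, with 172957 reads, listed 12451 CREs at 0, and in the second block the LPS 1 h libraries of Lenvatinib, MK2206, TG100115 and XL413 differed from the other 6 of that block at the CREs described here. Macrophage identity was checked at promoters: 4 of 8 markers had a promoter CRE (Itgam, Mertk, Lyz2 and Fcgr1), with mean UT scores of 226 to 647 against a promoter median of 149.5, while the promoter CREs of Ms4a1 (B cells), S100a8 (neutrophils), Flt3 (dendritic cells) and Col1a1 (fibroblasts) had scores of 70 or lower. T cell, erythroid and mast cell markers had no promoter CRE in the table. In such bulk libraries fewer cells with an acetylated CRE and less acetylation per cell cannot be told apart.

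Sequences at the centres of some of these CREs are given first, 300 bases each on the plus strand of GRCm38 (mm10), so that they can be read beside the values below. Capitals mark letters found on either strand for AP-1 (TGANTCA), PU.1 (GAGGAAGT), NF-kB (GGGANTTTC), C/EBP (TTGCNNAA), RUNX (TGTGGT) or the interferon response element (GAAANNGAA). The first 3 are at CREs with some of the largest early losses in CKI-treated cells. The CRE between Nsmce1 and Il4ra and the March1 promoter hold C/EBP letters and the Arhgap45 intron holds AP-1 letters, while the centres of the CREs at Cyth4, Runx1 and Csk, of similar loss, held none of these letters. The last 4, chosen after their values were seen, are members of groups of neighbouring CREs that hold interferon response letters.
Nsmce1 to Il4ra, chr7:125495572-125495871: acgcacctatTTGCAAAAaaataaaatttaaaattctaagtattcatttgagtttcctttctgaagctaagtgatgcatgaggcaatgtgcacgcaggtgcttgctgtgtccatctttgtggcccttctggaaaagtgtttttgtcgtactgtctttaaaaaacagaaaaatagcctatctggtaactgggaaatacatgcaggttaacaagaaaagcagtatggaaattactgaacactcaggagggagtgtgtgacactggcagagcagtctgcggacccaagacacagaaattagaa
March1 promoter, chr8:66386098-66386397: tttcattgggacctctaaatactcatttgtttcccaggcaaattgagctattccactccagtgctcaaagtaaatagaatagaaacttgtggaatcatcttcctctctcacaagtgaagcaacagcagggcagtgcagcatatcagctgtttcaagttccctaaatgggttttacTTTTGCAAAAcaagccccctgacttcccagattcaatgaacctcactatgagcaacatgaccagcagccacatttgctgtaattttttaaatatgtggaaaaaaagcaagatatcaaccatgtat
Arhgap45 intron, chr10:80024230-80024529: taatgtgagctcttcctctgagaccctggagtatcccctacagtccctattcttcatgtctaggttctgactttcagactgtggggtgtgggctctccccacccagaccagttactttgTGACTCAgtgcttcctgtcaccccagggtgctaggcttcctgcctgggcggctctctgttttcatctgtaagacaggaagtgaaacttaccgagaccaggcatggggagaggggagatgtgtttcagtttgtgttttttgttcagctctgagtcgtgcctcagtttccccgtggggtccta
Ms4a cluster near Gm8369, chr19:11497247-11497546: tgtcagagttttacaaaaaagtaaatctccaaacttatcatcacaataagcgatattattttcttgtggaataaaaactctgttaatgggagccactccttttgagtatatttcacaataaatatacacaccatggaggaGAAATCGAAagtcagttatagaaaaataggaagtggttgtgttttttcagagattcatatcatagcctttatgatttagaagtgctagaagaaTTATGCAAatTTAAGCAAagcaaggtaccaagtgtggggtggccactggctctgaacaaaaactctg
Near Il21r, chr7:125596776-125597075: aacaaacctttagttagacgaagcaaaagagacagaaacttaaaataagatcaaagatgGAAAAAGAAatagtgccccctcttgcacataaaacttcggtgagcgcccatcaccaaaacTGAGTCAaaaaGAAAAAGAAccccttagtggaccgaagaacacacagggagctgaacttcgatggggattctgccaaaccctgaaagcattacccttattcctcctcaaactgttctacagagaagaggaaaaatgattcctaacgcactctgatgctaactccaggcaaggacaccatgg
Near Themis2, chr4:132798009-132798308: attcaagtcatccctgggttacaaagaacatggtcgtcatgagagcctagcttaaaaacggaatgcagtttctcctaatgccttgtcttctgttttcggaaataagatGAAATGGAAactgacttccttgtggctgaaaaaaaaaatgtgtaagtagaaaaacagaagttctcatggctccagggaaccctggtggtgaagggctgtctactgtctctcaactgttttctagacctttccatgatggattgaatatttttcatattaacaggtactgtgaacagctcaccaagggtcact
Tbxas1, chr6:39003926-39004225: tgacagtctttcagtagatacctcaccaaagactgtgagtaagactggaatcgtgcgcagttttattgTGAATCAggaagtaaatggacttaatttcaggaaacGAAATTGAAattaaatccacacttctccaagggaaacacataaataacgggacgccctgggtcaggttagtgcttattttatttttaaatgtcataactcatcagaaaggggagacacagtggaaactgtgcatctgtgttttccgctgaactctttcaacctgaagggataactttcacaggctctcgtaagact

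In DMSO-treated cells the members were well acetylated before stimulation. Their mean UT score had a median of 116.5 (from 5 to 2093), against 36.5 over all CREs and 131.5 over the lasting losses, and 1010 of them (76.8%) had a UT score of 50 or more. After LPS the median D of the members was -1.20 at 30 min, -0.84 at 1 h, -0.05 at 2 h and 0.27 at 4 h. The lasting losses started with nearly the same value at 30 min, -1.26, and then went to -1.57, -1.86 and -1.60, while the median over all CREs stayed between 0.07 and 0.11. The values in UT and at 30 min, 1 h and 4 h chose the members and are given as a description. A loss of the size asked for also needs a UT score above the floor. A UT score higher than that over all CREs was thus favoured by the choice.

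The members differed in the time of the loss. The early loss was past -1 at 30 min only in 761 members, at both 30 min and 1 h in 306, and at 1 h only in 248. The 2 h LPS libraries took no part in the choice, but the UT libraries that D at 2 h also holds did. D at 2 h was at -0.2 or higher in 571 of those 761, in 148 of the 306 (48.4%) and in 73 of the 248 (29.4%). Over all members 792 (60.2%) were at that level at 2 h, which is the share over all CREs (60.3%), and 112 were still at -1 or lower. The difference between the classes was not tested. At 4 h D was above 0 in 982 members (74.7%, against 53.7% of all CREs) and at 1 or higher in 212 (16.1%, against 19.4%), and the choice had set its lower limit. Deep losses were few, 70 members having an early D of -2 or lower and the lowest standing at -3.01.

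**Figure D1:**
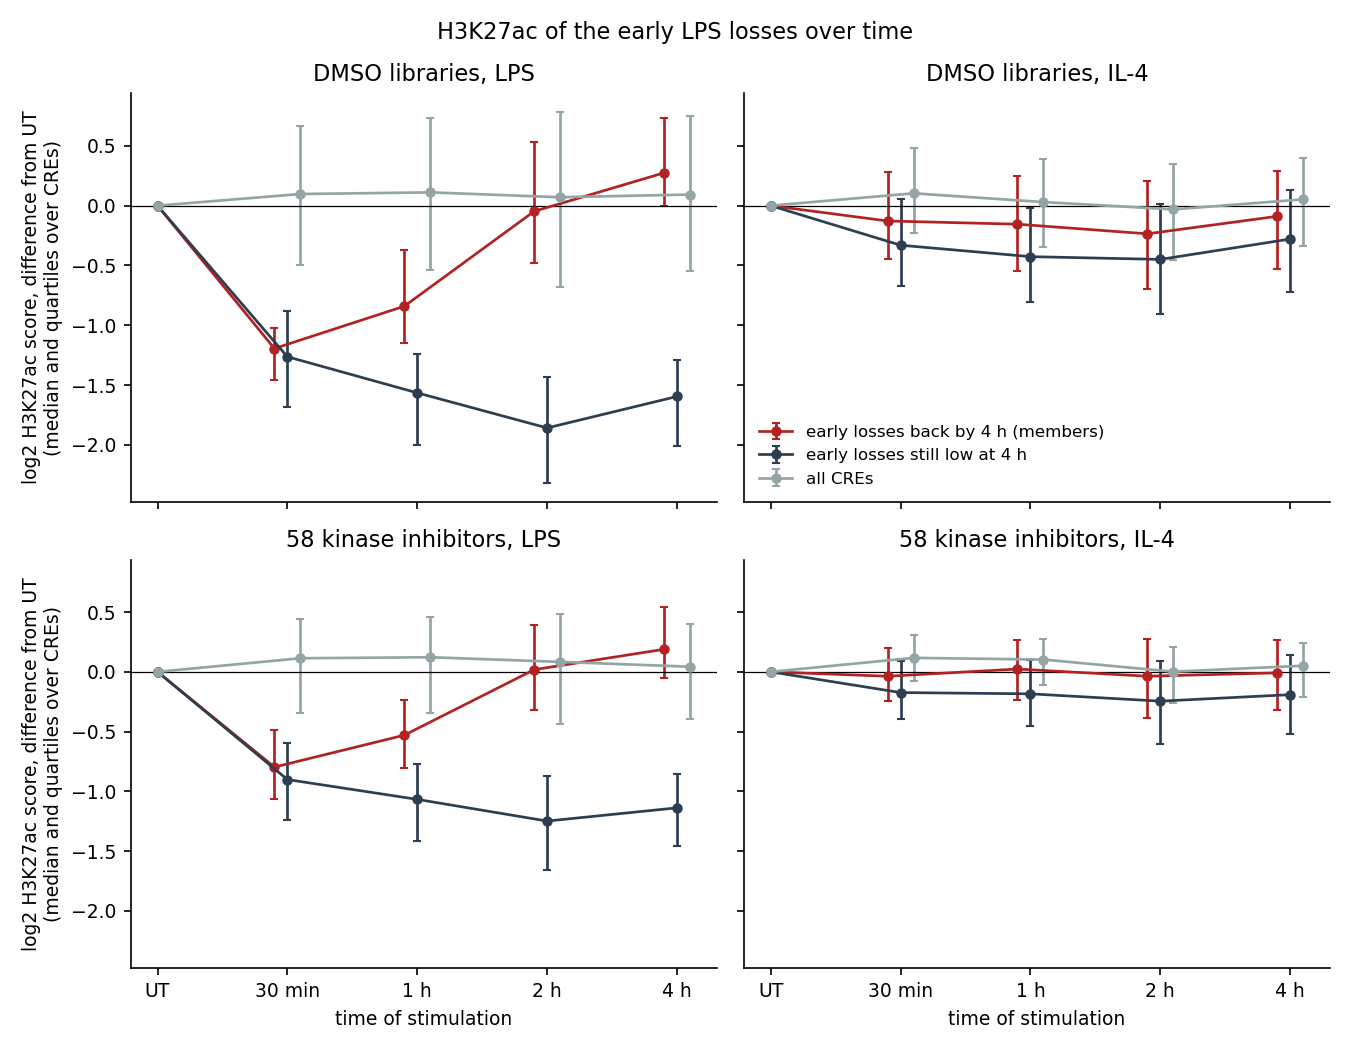
Log2 H3K27ac score relative to UT (y axis) against time of LPS (left) or IL-4 (right), in DMSO libraries (top) and in CKI libraries (bottom). Points are medians over CREs and bars the quartiles for the 1315 members, the 6093 lasting losses and all CREs. After LPS the members and the lasting losses leave UT together at 30 min, where the DMSO medians are -1.20 and -1.26, and separate from 1 h on.

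The mean of these libraries chose the members, which favours a separation of the replicates, and the same count over all CREs was not made. As a description of their spread, both LPS libraries lay below both UT libraries in 1064 of the 1067 members chosen at 30 min. At 1 h they did so in 551 of the 554 chosen there. When the choice was made on replicate 1 alone it took 2642 CREs, of which 773 (29.3%) also passed on replicate 2, where 2.59% of all CREs passed. The choice on replicate 2 alone took 1533 CREs, and the same 773 (50.4%) passed on replicate 1, against 4.46% of all CREs. Many CREs lie close to the thresholds: 320 members were within 0.1 of the early one, with 378 CREs just outside it, and 155 members were within 0.1 of the 4 h one, with 221 just outside. CREs near Os9, Pde7b and Ahi1 were included with an early D of exactly -1, and CREs near Synpr, Polr2e and Ssbp4 were left out at -0.996. At 4 h the CREs near Cbx2, Usp6nl and Il6ra were included at -0.199, -0.197 and -0.196, and those near Rab7b, Fam84b and Ppt1 were left out at -0.2004, -0.201 and -0.201. The thresholds thus divide a continuous range of values.

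The CKI-treated cells, whose libraries took no part in the choice, allow the same changes to be tested. A limma fit with CKI and condition as terms gave the mean difference from UT over all CKIs, and a CRE was called at an adjusted p below 0.05 (Benjamini-Hochberg over 59167 CREs) with a log2 difference beyond 0.5. Of 1314 members tested, 967 (73.6%) fell at 30 min of LPS, where 18.9% of all CREs did, and 685 (52.1%) fell at 1 h, against a background of 19.2%. The median log2 difference of the members was -0.80 at 30 min and -0.53 at 1 h, and 0.11 and 0.12 over all CREs. At 30 min 4 members rose (0.304%, against 20.6% of all CREs) and at 1 h 18 rose (1.37%, against 22.4%). Within single blocks of CKIs the counts of members that fell ranged from 814 to 1064 at 30 min and from 433 to 903 at 1 h. Shares over all CREs in single blocks are not given beside them. The lowest 1 h count was that of the second block, and without that block 730 members fell at 1 h.

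At 2 h the members were divided, with 211 lower than UT (16.1%, against a background of 23.0%) and 279 higher (21.2%, against 24.0%). At 4 h 18 members were still lower (1.37%), where 20.8% of all CREs were lower, and 357 were higher (27.2%), against 21.1%. Compared directly with 30 min, 1060 members (80.7%) rose by 4 h, against a background of 15.7%, with a median log2 difference of 1.02 where all CREs had -0.09. The lasting losses moved differently in the same libraries, as 4978 of 6092 (81.7%) were lower at 30 min, with a median of -0.90, and 5792 (95.1%) were lower at 4 h, with a median of -1.14.

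Taken over time points, 1039 members (79.1%) fell at 30 min or 1 h, against 23.3% of all CREs. A loss at 30 min or 1 h with no call of a loss at 4 h was found in 1023 members (77.9%), in 7.50% of all CREs and in 95 of the lasting losses (1.56%). A smaller group of 273 members (20.8%, against a background of 0.923%) was lower than UT at 30 min and higher than UT at 4 h. Members chosen at 30 min only more often ended above UT, 276 of 761 with a median of 0.32 at 4 h, than members chosen at both times, 52 of 306 with a median of 0.11, or at 1 h only, 29 of 247 with a median of -0.01. This difference between the classes was not tested. The 4 h counts also differed between blocks of CKIs, since in the first block alone 161 members were higher and 144 lower, with a median of -0.07, while the fourth block alone gave 590 higher. Without the first block 417 members were higher and 10 lower. The blocks also differed in depth, with a median of 893655 reads in CREs in the first and 4318710 in the fourth. Shares over all CREs in single blocks are not given here, so a difference of the members is not separated from one of the whole block.

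Members at promoters, within 1000 bp of a start, showed the early loss at a higher share than the other members at 30 min and at a similar one at 1 h, and neither difference was tested. Of 187 such members 165 (88.2%) fell at 30 min, all 187 had a log2 difference below 0, with a median of -0.91, and 96 (51.3%) fell at 1 h. Of the 1127 other members 802 (71.2%) fell at 30 min, with a median of -0.77, and 589 (52.3%) at 1 h. Among all promoters 22.2% were lower at 30 min, with a median of -0.12.

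The largest early losses were found at CREs near Nsmce1 and Il4ra, Cyth4, March1, Arhgap45, Runx1 and Csk. At the CRE between Nsmce1 and Il4ra (chr7:125494590-125496853), whose neighbours encode a subunit of the SMC5/6 complex and the receptor of IL-4, the DMSO scores were 559 and 511 in UT, 86 and 90 after 30 min of LPS, 165 and 139 after 1 h, 451 and 434 after 2 h and 568 and 573 after 4 h. Both replicates were lowest at 30 min and above both UT values by 4 h. In CKI-treated cells the log2 difference from UT was -1.995 ± 0.06 (SE) at 30 min (adjusted p = 3.9e-122) and -1.67 ± 0.06 at 1 h, and it was 0.07 ± 0.06 at 4 h (adjusted p = 0.31). Every CKI, 58 of 58, gave a lower score at 30 min than in its own UT library.

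The March1 promoter (chr8:66385475-66387019), 47 bp from the start of a gene for a ubiquitin ligase that takes MHC class II from the cell surface, had DMSO scores of 308 and 267 in UT. They were 48 and 43 at 30 min, 101 and 64 at 1 h, 203 and 244 at 2 h and 397 and 392 at 4 h. It fell by 1.93 at 30 min in CKI-treated cells (SE 0.08, adjusted p = 2.4e-86) and was 0.45 ± 0.08 above UT at 4 h, which did not reach the size limit. An intron of Milr1 (chr11:106758380-106760073), which encodes an inhibitory receptor of myeloid cells, went from 237 and 196 in UT to 23 and 22 at 30 min, then 70 and 74, 158 and 167, and 295 and 247 at 4 h. Its replicates at 30 min and 1 h lay well below both UT values, and the fall in CKI-treated cells was 1.74 on the log2 scale (SE 0.07, adjusted p = 3.8e-94).

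An intergenic CRE near Cyth4, an exchange factor for ARF GTPases (chr15:78586665-78590055), had 776 and 756 in UT, 175 and 166 at 30 min, 374 and 419 at 1 h, 339 and 290 at 2 h and 801 and 728 at 4 h. It stayed low for longer than the CREs above, being lower than UT by -0.83 ± 0.05 at 2 h in CKI-treated cells after -1.98 ± 0.05 at 30 min. An intron of Csk (chr9:57649942-57653407), the kinase that restrains Src family kinases, had 964 and 1052 in UT, 195 and 259 at 30 min, 305 and 314 at 1 h, 731 and 724 at 2 h and 1187 and 1016 at 4 h. CKI-treated cells gave -1.84 ± 0.05 at 30 min and 0.03 ± 0.05 at 4 h. An intron of Tbxas1 (chr6:38973250-38975901), thromboxane A synthase, had 623 and 595 in UT, 84 and 121, 185 and 108, 292 and 294, and 632 and 530 at 4 h. Its difference in CKI-treated cells was -1.83 ± 0.05 at 30 min, -1.61 ± 0.05 at 1 h and -0.80 ± 0.05 at 2 h, all called.

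The named members nearest to Runx1, a transcription factor of blood cells, lay on chromosome 16 at 205635 and 208027 bp from its start. They belong to a group of 4 members nearest to this gene. The one at chr16:93033369-93034984 had 214 and 194 in UT, 28 and 33 at 30 min, 74 and 42 at 1 h, 124 and 128 at 2 h and 168 and 204 at 4 h. The other, at chr16:93030974-93032595, had 556 and 557, 129 and 157, 189 and 194, 520 and 429, and 565 and 558. They fell by 1.86 and 1.51 at 30 min in CKI-treated cells (SE 0.07 and 0.05). Intronic CREs of Psap (prosaposin, a precursor of lysosomal activators) and Arhgap45 were 1.83 and 1.90 lower at 30 min, and Psap went from 705 and 593 in UT to 94 and 129 before it stood at 893 and 817 at 4 h.

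Other CREs with low DMSO values at 30 min had smaller log2 differences with CKIs than those above. In the CRE near Lilrb4a, an inhibitory receptor of the leukocyte immunoglobulin-like family, the DMSO scores were 183 and 175 in UT, 20 and 31 at 30 min, 160 and 97 at 1 h, 146 and 120 at 2 h and 217 and 196 at 4 h, and the fall at 30 min with CKIs was 1.49 (SE 0.06). In an intron of Plac8 the scores were 75 and 68 in UT, 5 and 9 at 30 min, 39 and 25 at 1 h and 73 and 64 at 4 h, and the CKI difference was -0.50 ± 0.08 at 30 min and -0.42 ± 0.08 at 1 h. A CRE near Scyl2 went from 96 and 112 to 8 and 16 and back to 160 and 135, with -1.29 ± 0.09 at 30 min with CKIs.

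**Figure D2:**
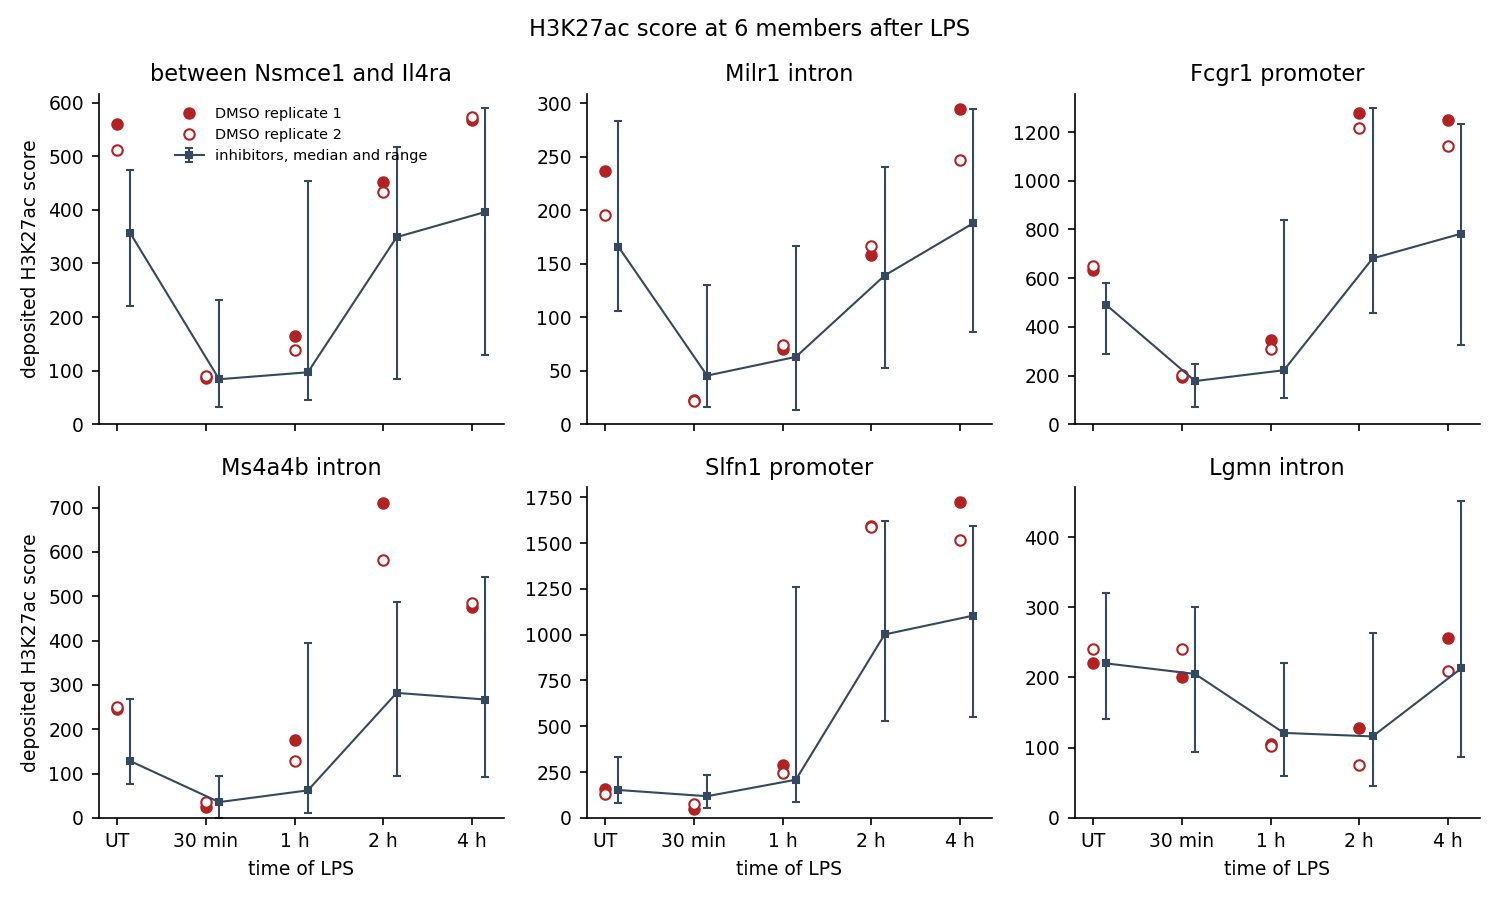
H3K27ac score (y axis, linear from 0) against time of LPS for 6 members. Circles are both DMSO replicates, and squares and bars the median and range over CKI libraries; the Nsmce1 to Il4ra CRE and the Milr1 intron return to their UT level, the Fcgr1, Ms4a4b and Slfn1 CREs end above it, and the Lgmn intron is lowest at 1 h and 2 h.

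The members that ended highest were at Schlafen genes and near Rmi2. The Slfn1 promoter (chr11:83114536-83119060), of a member of the Schlafen family, had DMSO scores of 158 and 129 in UT, 48 and 75 at 30 min, 290 and 247 at 1 h, 1594 and 1589 at 2 h and 1722 and 1516 at 4 h. Both replicates were below UT at 30 min and above it at every later time. With CKIs the value at 30 min was -0.37 ± 0.07, short of the size limit, and the rise at 4 h was 2.71 ± 0.07 (adjusted p = 4.5e-146). A second CRE near Slfn1 (chr11:83124266-83125862) had 46 and 48 in UT, 8 and 16 at 30 min and 932 and 698 at 4 h, and rose by 3.12 ± 0.14 at 4 h with CKIs. An intron of Rmi2, a partner of the BLM helicase (chr16:10843311-10845239), had 56 and 39 in UT, 25 and 7 at 30 min, 161 and 108 at 1 h, 804 and 747 at 2 h and 706 and 659 at 4 h. With CKIs it fell at 30 min (-0.57 ± 0.08) and rose by 2.99 ± 0.09 at 4 h. The neighbouring CRE near Gm11172 had scores of 7 and 3 in UT and 0 in both 30 min libraries, so its early loss is one between values near the floor, and with CKIs it gave 0.15 ± 0.11 at 30 min (adjusted p = 0.23).

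An intron of Ms4a4b (chr19:11446630-11448225), a membrane protein with 4 spans, joined a deep loss to a gain. Its DMSO scores were 245 and 250 in UT, 25 and 36 at 30 min, 175 and 129 at 1 h, 711 and 581 at 2 h and 476 and 484 at 4 h. With CKIs it fell by 1.82 at 30 min (SE 0.09) and rose by 0.96 ± 0.09 at 4 h, both called, and 58 of 58 CKIs were lower than UT at 30 min.

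Members called higher with CKIs within the first hour of LPS were few, and the 4 largest of these rises came at 1 h. An intronic CRE of Mre11a, with Ankrd49 as the nearest protein-coding start, had 32 and 31 in UT, 13 and 10 at 30 min, 165 and 198 at 1 h, 221 and 226 at 2 h and 102 and 82 at 4 h, and rose by 1.54 ± 0.10 at 1 h with CKIs. The CRE near Agpat3 had 135 and 108, 38 and 52, 244 and 244, 227 and 232, and 292 and 216, and with CKIs it fell by 0.68 at 30 min (SE 0.07) and rose by 0.90 ± 0.07 at 1 h. A CRE in an intron of Ccdc146 near Fgl2 rose by 0.80 ± 0.09 at 1 h and stood at 428 and 359 at 4 h after 37 and 39 in UT. Of 3 members on the Y chromosome, the one in Gm47283 was named by the same rule. It had scores of 0 in most DMSO libraries, and the members there are uncertain, since genes there have near-identical copies.

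Members were also counted by gene list. The nearest protein-coding gene was used, and members were 2.22% of all CREs. Early losses were 10299 and lasting losses 6093 of the 59190 CREs. Among CREs nearest to 23 macrophage lineage factors and receptors, 19 of 278 (6.83%) were members. They lay at Adgre1, Ccr2, Cebpb, Csf1r, Fcgr1, Fcgr3, Irf8, Maf, Mertk and Runx1. Of the 19, 16 fell at 30 min or 1 h with CKIs, where 79.1% of all members and 23.3% of all CREs did. The same 278 CREs held 89 early losses, of which 38 were lasting. The Fcgr1 promoter (chr3:96292657-96294901), of the high-affinity IgG receptor CD64, had DMSO scores of 632 and 650 in UT, 193 and 202 at 30 min, 348 and 309 at 1 h, 1277 and 1217 at 2 h and 1251 and 1143 at 4 h. All 4 early LPS values were below UT and all 4 late ones above, and with CKIs it fell by 1.45 at 30 min (SE 0.06) and rose by 0.69 ± 0.06 at 4 h. The CRE near Adgre1, the gene of F4/80, had 835 and 834 in UT, 409 and 393 at 30 min, 1052 and 819 at 1 h and 789 and 682 at 4 h, and fell by 1.16 at 30 min with CKIs (SE 0.05).

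Few members lay at genes that LPS is well known to induce. No member was among 141 CREs nearest to 24 cytokines and chemokines. TLR4 signalling genes had 2 among 252 (0.794%), and immediate early factors 1 among 329 (0.304%). Early losses in DMSO libraries numbered 1, 22 and 64 in these lists, of which 1, 13 and 53 were lasting. The member nearest to Fos (chr12:85487109-85491385), a subunit of AP-1, had 633 and 526 in UT, 241 and 234 at 30 min, 450 and 373 at 1 h, 615 and 538 at 2 h and 1132 and 983 at 4 h, and with CKIs it fell by 0.83 at 30 min and rose by 0.82 at 4 h (SE 0.05 for both). The member in an intron of Map3k8, the kinase also called TPL2, had 243 and 279, 114 and 129, 498 and 480, 743 and 666, and 635 and 596, with -0.94 ± 0.06 at 30 min and 1.02 ± 0.06 at 4 h. The other TLR4 pathway member, in an intron of Map3k7 (TAK1), had 126 and 121 in UT, 56 and 55 at 30 min, 29 and 35 at 1 h and 141 and 148 at 4 h.

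Other lists had few members each. Interferon response genes had 3 of 103 CREs (2.91%), and the one at Ifit2, an interferon-induced RNA-binding protein, had 92 and 77 in UT, 36 and 27 at 30 min, 127 and 166 at 1 h, 406 and 361 at 2 h and 346 and 359 at 4 h. It fell by 0.65 at 30 min (SE 0.07) and rose by 1.60 ± 0.07 at 2 h with CKIs, and the members at Irf5 and Oasl1 fell by 0.62 and 0.56 at 30 min. Phosphoinositide and small GTPase signalling had 13 of 333 (3.90%) and held 57 early losses, 31 of them lasting. Of the 13, 10 fell early with CKIs, where 79.1% of all members did. Both named members at Pik3cd, the gene of the p110δ subunit of PI3K, were at its promoters, and fell by 1.39 and 1.47 at 30 min (SE 0.04 for both). The named Dock8 member fell by 1.16. Lysosome and lipid handling had 6 of 158 (3.80%) and held 49 early losses, 31 of them lasting. All 6 fell early with CKIs, against the same 79.1% of all members. The CRE near Ctss, cathepsin S, fell by 1.43 at 30 min, and both named members nearest to Lgmn, the protease legumain, were chosen at 1 h only. The intergenic one was -0.84 ± 0.04 at 30 min and -0.95 ± 0.04 at 1 h with CKIs, lower than UT at 30 min in 58 of 58. In the Lgmn intron (chr12:102417064-102420045) the DMSO scores were 220 and 240 in UT, 201 and 240 at 30 min, 105 and 103 at 1 h, 128 and 75 at 2 h and 256 and 209 at 4 h, and the difference with CKIs was -0.13 ± 0.06 at 30 min and -0.82 ± 0.06 at 1 h.

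Cell cycle genes had 5 of 149 CREs, chemoattractant and purinergic receptors 4 of 187, IL-4 response genes 2 of 161 and chromatin acetylation genes 2 of 141. Members near Ccnd3 and Ccnd2, which encode D-type cyclins, fell by 1.08 and by 0.84 and 1.10 at 30 min with CKIs. Members near Ccr2, P2ry14 and Gpr183 fell by 1.13, 1.25 and 0.87, and none of the list's members was called higher at 4 h, P2ry14 standing at 0.37 ± 0.07. The members nearest to the acetyltransferase genes Ep300 and Kat6a fell by 0.96 and 1.10 at 30 min and rose by 0.51 and 0.67 at 4 h. The CRE near Il4ra (chr7:125538622-125541838), within the same stretch as the deepest loss, had 170 and 151 in UT, 61 and 64 at 30 min, 180 and 191 at 1 h, 623 and 601 at 2 h and 939 and 853 at 4 h. With CKIs it fell by 0.70 at 30 min (SE 0.08) and rose by 1.95 ± 0.08 at 4 h.

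IL-4 was the other stimulus, and no IL-4 library took part in the choice, although the DMSO UT libraries did. In DMSO libraries the median D of the members was -0.13, -0.16, -0.24 and -0.09 at 30 min, 1 h, 2 h and 4 h of IL-4. In CKI-treated cells 95 members were lower than UT at 30 min (7.23%, background 3.78%) and 160 higher (12.2%, background 12.1%). At 1 h 128 were lower (9.74%, background 6.81%) and 180 higher (13.7%, background 11.6%), at 2 h 242 were lower (18.4%, background 13.4%) and 172 higher (13.1%, background 9.70%), and at 4 h 201 were lower (15.3%, background 11.3%) and 162 higher (12.3%, background 9.36%). Over the 4 times 306 members were lower at least once (23.3%, background 16.1%), 255 higher at least once (19.4%, background 16.4%) and 757 neither (57.6%, against 67.8% of all CREs). A group of 142 members (10.8%) fell at 30 min or 1 h of LPS and rose at 30 min or 1 h of IL-4, where the background was 2.42%, and 156 (11.9%, against 4.96% of all CREs) fell early with both. Since the members were chosen for an early LPS loss, both shares are read among the CREs that fell early after LPS. There 156 of 1039 members and 2937 of 13771 CREs also fell after IL-4, and 142 and 1434 rose. Among the lasting losses 25.5% fell early with both stimuli and 9.62% fell after LPS and rose after IL-4.

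The direct comparison of both stimuli, which is free of the UT libraries, gave lower values after LPS than after IL-4 in 888 members at 30 min (67.6%, background 22.1%) and in 703 at 1 h (53.5%, background 22.4%). The median log2 difference was -0.73 and -0.56, and over all CREs it was -0.04 and -0.01. The lasting losses, which also had an early LPS loss by choice, were lower after LPS in 4241 of 6092 (69.6%) at 30 min and 4784 (78.5%) at 1 h. Among the DMSO libraries, a limma fit of the 8 IL-4 libraries compared 4 h with 30 min of IL-4, a contrast that shares no library with the choice. Of 1279 members tested, 222 fell (17.4%, background 17.0%) and 174 rose (13.6%, background 9.26%), with a median of 0.01. Without the second IL-4 30 min replicate 120 rose.

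A few members responded more to IL-4 than to LPS. The CRE near Rnase2a (chr14:51252930-51254610), a secreted ribonuclease, had DMSO scores of 40 and 27 in UT, 12 and 13 at 1 h of LPS and 141 and 141, 222 and 230, 323 and 371, and 544 and 464 over the IL-4 times. Its IL-4 values were higher at each later time in both replicates, and with CKIs it rose by 2.53 ± 0.10 at 4 h of IL-4. The CRE near Ffar3, a receptor of short-chain fatty acids, had 58 and 60 in UT, 30 and 24 at 30 min of LPS and 330 and 320 at 30 min of IL-4, a rise of 2.45 ± 0.07 with CKIs. A CRE in an intron of Clec16a, with Socs1 as the nearest gene of the IL-4 list, had 27 and 29 in UT, 3 and 7 at 1 h of LPS and 318 and 323 at 4 h of IL-4, and Socs1 encodes an inhibitor of JAK-STAT signalling. The Rmi2 intron rose with either stimulus, to 607 and 590 at 30 min of IL-4. The CRE near Zfp951 had 16 and 1 in UT and 0 in both LPS 30 min libraries, and rose by 2.43 ± 0.15 at 30 min of IL-4.

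Other members fell and stayed low after IL-4 although they recovered after LPS. Both named members near Svil, the actin-binding protein supervillin, had 207 and 230, and 224 and 207, in UT. At 4 h they had 66 and 68, and 78 and 93, after IL-4, but 241 and 179, and 225 and 179, after LPS. With CKIs they fell by 1.82 and 1.93 at 4 h of IL-4 (SE 0.08 and 0.09), and were 0.03 ± 0.08 and -0.22 ± 0.09 at 4 h of LPS. An intron of Polr1a, the large subunit of RNA polymerase I, had 301 and 284 in UT, 67 and 88 at 4 h of IL-4 and 424 and 303 at 4 h of LPS, and the CRE near Ifitm6 had 382 and 411, 72 and 105, and 387 and 393. They fell by 1.72 (SE 0.06) and 1.47 (SE 0.07) at 4 h of IL-4 with CKIs.

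The dip was present under each of the 58 CKIs. The median log2 difference over the members between a CKI's LPS libraries and its own UT was below 0 at 30 min in 58 of 58, from -1.45 with PH797804 to -0.37 with Telatinib, with a middle value of -0.78. The same CKIs had the lowest and highest median over all CREs, -0.76 and 0.54, and the members' median minus that over all CREs ran from -1.15 with SGX523 to -0.21 with Talmapimod, below 0 in 58 of 58. The members' median itself was below 0 at 1 h in 53 of 57, from -0.88 with Filgotinib to 0.21 with Lenvatinib. At 2 h this median was below 0 in 20 of 55. At 4 h it was below 0 in 6 of 55, from -0.22 with AZD2014 to 0.58 with ONO4059analogue. The median over all CREs was below 0 in 22 of 57, 23 of 55 and 30 of 55 at 1 h, 2 h and 4 h. The members' median minus that over all CREs was below 0 in 52 of 57, 28 of 55 and 8 of 55. The lasting losses had a median below 0 at 4 h in 55 of 55. The 4 CKIs with a members' median at or above 0 at 1 h were all of the second block. They were Lenvatinib at 0.21, MK2206 at 0.12, TG100115 at 0.06 and XL413 at 0.01. The other 6 CKIs of that block lay between -0.76 and -0.25. At the lasting losses the same 4 had 1 h medians of -1.41, -1.36, -1.46 and -1.46, where the median over all CKIs was -1.12 at 1 h and -1.29 at 2 h. The members' median was below 0 at 4 h with AMG208, AZD2014, AZD8186, Afatinib and Vatalanib of the first block. Talmapimod, the last of these 6, was of the second.

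**Figure D3:**
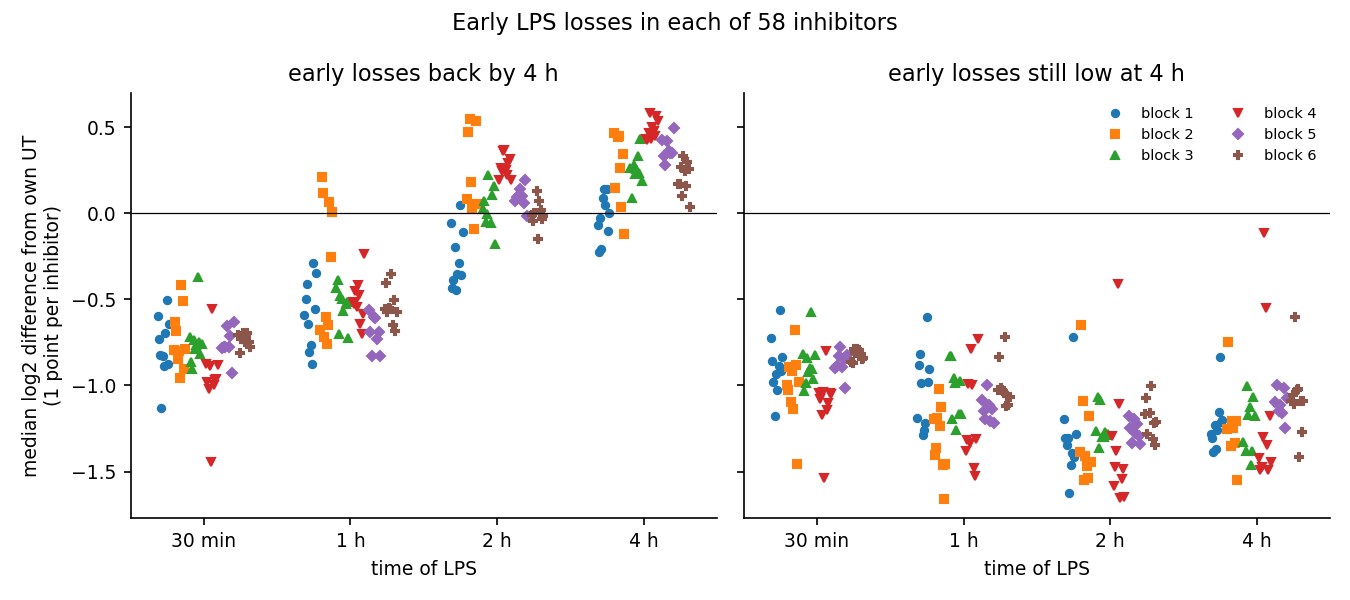
Median log2 difference from the CKI's own UT library over the members (left) and over the lasting losses (right), on the y axis, against time of LPS, with 1 point per CKI and symbols for the 6 blocks of the table. At 30 min 58 of 58 points on the left lie below 0, at 1 h 4 points of block 2 lie at or above 0, and at 4 h 6 of 55 lie below 0.

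Each CKI was then compared with the mean of the others for its early LPS change, 30 min and 1 h together, in a second limma fit of 59163 CREs. Over the 58 CKIs, 391 pairs of member and CKI were called lower and 241 higher, and 40 CKIs had no called member, with 9 to 186 members (median 40) at an unadjusted p below 0.05 in each. Most CKIs had 1 library per condition, the spread in this fit comes from all CKIs, and a lack of calls does not show that a CKI acted like the others. PH797804, a p38 inhibitor, had 312 members lower (23.7%), but 34.1% of all CREs were lower with it, and its 30 min library was the one with 172957 reads. Lenvatinib, an inhibitor of VEGF and FGF receptors, had 108 members higher (8.22%, background 1.02%), and its median over the members was -0.63 at 30 min and 0.21 at 1 h. Talmapimod, another p38 inhibitor, had 46 of 1314 higher (background 0.360%), with 699985 reads in its UT library, the fewest of its UT and LPS libraries. When each CKI was compared only with its own block, an analysis added after the data were seen, Lenvatinib and Talmapimod had 0 called members each, with 213 and 146 members at an unadjusted p below 0.05, and PH797804 had 246 lower. At 30 min alone Lenvatinib had 3 members higher and 6 lower, and Talmapimod 8 and 8. With quantile normalization PH797804 had 22 lower and 82 higher. The part of depth in these differences was not tested.

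The members were spread over introns (630, 47.9%), intergenic sequence (596, 45.3%), UTRs (64) and coding exons (25). Promoters made up 187 (14.2%), against 18.2% of all CREs and 8.93% of the lasting losses, and among CREs with a UT score of 50 or more 17.0% of members, 34.6% of all and 10.0% of the lasting losses. Among the classes, members chosen at both times were at promoters in 10.1%. The median distance to the nearest protein-coding start was 14076 bp for members, 20193 bp for lasting losses and 15400.5 bp for all CREs. Width, GC content and the share of masked repeats had medians of 1681 bp, 45.9% and 21.4%, and 1652 bp, 46.4% and 18.9% over all CREs.

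The members were grouped along the chromosomes. Another member lay within 10 kb of 338 of them (25.7%), while a member lay that close to 3.12% of all CREs, members included, and 2.35% of the lasting losses. How often a lasting loss lay that close to another lasting loss was not counted. Joined where gaps were under 50 kb, they made 939 groups, of which 730 were single members and 76 held 3 or more (319 members in all). CREs within 10 kb of a member that were no members themselves, 1510 in number, had a median of -0.33 at 30 min with CKIs and fell in 577 (38.2%), against 17.1% of the 56365 CREs farther away. Neighbouring CREs can share ChIP fragments and so are not independent.

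The largest group held 11 members over 166704 bp in the Ms4a cluster (chr19:11367701-11534404), a family of 4-span membrane proteins. All 11 fell at 30 min with CKIs, with medians of -0.86 at 30 min and 1.12 at 4 h. The 10 members of the Ly6 cluster (chr15:74917896-75022425), at Ly6a, Ly6e and Ly6i, which encode surface proteins held by a lipid anchor, also fell in 10 of 10, with -1.18 and 1.15. Between Nsmce1, Il4ra and Il21r (chr7:125471301-125598081) 9 of 9 fell, with -0.94 and 0.61. Around March1 7 of 8 fell, with -1.03 and 0.38, and at Fcgr3 and Fcgr4 (chr1:170996239-171112344), the genes of activating IgG receptors, 6 of 6 fell, with -1.36 and 0.38. At Tbxas1 (chr6:38964866-39008236) 7 of 7 fell, with -0.98 at 30 min, and the median at 4 h was 0.12. Fewer fell at 30 min in other groups, 2 of 4 at Slfn1 and Slfn2, 2 of 4 at Golga5 and Lgmn, 3 of 5 at Exoc6 and Hhex and 3 of 5 at Eif2a and Selenot. An early loss in DMSO libraries is what made these CREs members, and 73.6% of all members fell at 30 min with CKIs. The differences between groups at 4 h were not tested.

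Short motifs were searched on both strands in the 300 bases at each centre, as a description of the letters present. The interferon response letters, GAAANNGAA, bound by IRF and STAT complexes, were in 253 members (19.2%), against 11.5% of all CREs and 10.0% of the lasting losses. They were in 28.6% of the members that rose above UT at 4 h with CKIs and in 17.4% of all CREs that did so. By time of loss they were in 22.1% of members chosen at 30 min only, 19.6% at both times and 10.1% at 1 h only, and leaving out promoters gave 19.9% of members and 12.4% of all CREs. The C/EBP letters, TTGCNNAA, were in 18.9% of members, 16.7% of lasting losses and 14.7% of all CREs. AP-1 letters, TGANTCA, were in 11.9% of members, 17.3% of lasting losses and 20.2% of all CREs. NF-kB letters, GGGANTTTC, were in 8 members (0.608%), 0.837% of lasting losses and 1.83% of all CREs. PU.1 letters, GAGGAAGT, were in 11.6% of members, 13.2% of lasting losses and 9.11% of all CREs. RUNX letters, TGTGGT, were in 342 of 1315 members (26.0%), 28.2% of lasting losses and 14803 of 59190 CREs. KLF/SP letters, GGGCGG, were in 10.4% of members, 9.47% of lasting losses and 16.2% of all CREs. STAT letters, TTCNNNGAA, were in 10.7% of members, 8.19% of lasting losses and 9.40% of all CREs, and can overlap the interferon response letters.

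**Figure D4:**
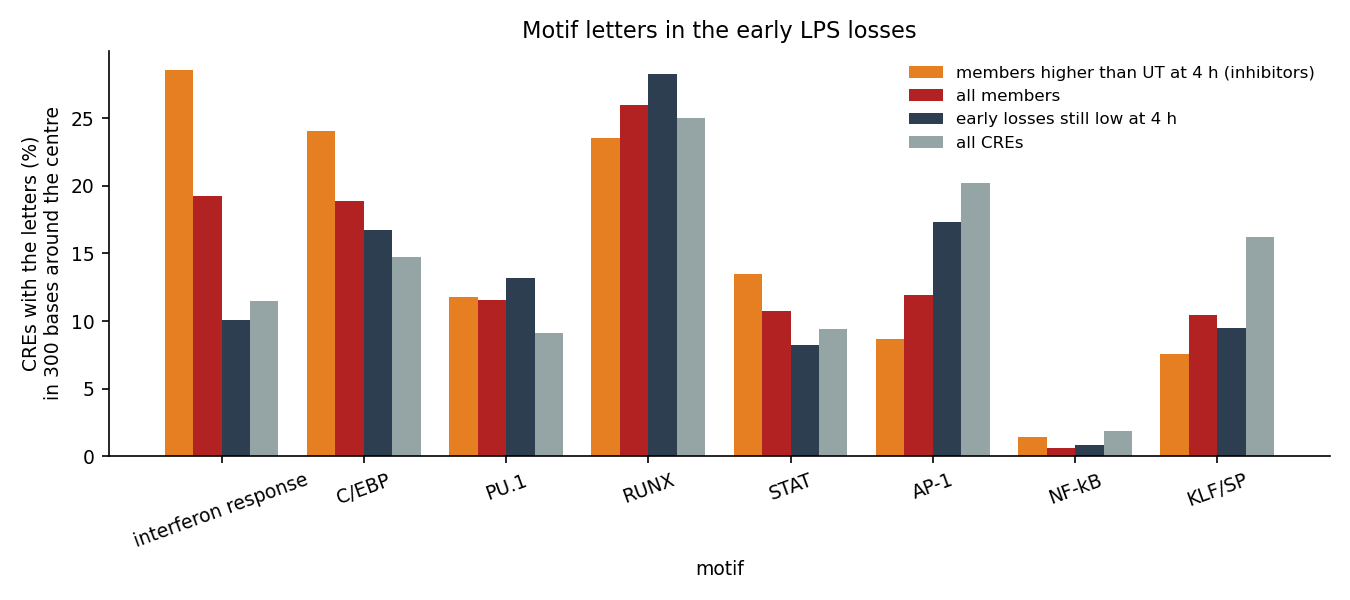
Share of CREs (y axis, percent) with the letters of each of 8 motifs (x axis) in the central 300 bases, for members that rose above UT at 4 h with CKIs, all members, lasting losses and all CREs. The interferon response letters are in 19.2% of members and 11.5% of all CREs, and the AP-1 letters in 11.9% and 20.2%.

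Letters and course did not go together in every case among the sequences printed above, which were chosen and not tested. The centre near Gm8369 in the Ms4a cluster held interferon response and C/EBP letters, and that CRE was -0.78 at 30 min and 2.30 at 4 h with CKIs. The centre near Themis2 held interferon response letters alone, with -1.05 and 1.14, and that of Tbxas1 held AP-1 and interferon response letters, with -0.98 and 0.97. The centre near Il21r, with 2 interferon response matches and 1 AP-1 match, gave -1.18 and 0.61. The Nsmce1 to Il4ra centre, with C/EBP letters and none of the interferon response letters, gave -1.995 and 0.07, and the Arhgap45 centre, with AP-1 letters, -1.90 and -0.02. The March1 promoter, with C/EBP letters alone, gave -1.93 and 0.45, and a centre near Sit1 with 2 interferon response matches, not printed here, gave -1.05 and 0.20.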

How the data were processed

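H3K27ac ChIP-seq of mouse BMDMs was analysed from 1 table of CREs by libraries. The authors trimmed single-end reads, mapped them to mm10 (ShortStack in their methods; Bowtie and SAMtools per the labels, versions not given), counted reads around ATAC-seq peak summits and scaled each library by 1 factor from invariant peaks. The deposited values are rounded after scaling, so they were treated as scores and not as counts, and no count model was used. The reads in CREs were recovered from the value of 1 read where low scores showed steps (ranges are given in the report), and depth was not recovered for the DMSO UT libraries.

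Scores were analysed as log2(score + 5), in Python 3.11.15 (pandas 2.3.3, numpy 2.4.6, matplotlib 3.10.9) and R 4.3.3 with limma 3.58.1. D was rounded to 9 decimals before the thresholds were applied. The CKI libraries were fitted with CKI and condition as terms and a mean trend (480 residual degrees of freedom) over CREs with a mean score of at least 10, and a CRE was called at a Benjamini-Hochberg adjusted p under 0.05 over all CREs tested with a log2 difference beyond 0.5. Second libraries of a CKI entered this fit as further libraries of the same CKI and condition. The CKI comparison used an interaction of each CKI with the early LPS change, and the DMSO IL-4 comparison the 8 DMSO IL-4 libraries. The DMSO UT and LPS libraries chose the members and were not tested. The fits were tested on simulated data. The members and gene lists were chosen with earlier results of these data known.

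CREs were named by rule. The rule took the 8 members with the lowest D and the 8 with the largest early loss in the CKI fit (1 per gene, mean score at least 50), the 4 with the highest value at 4 h of LPS, the 4 with the largest rise at 30 min or 1 h, the 4 highest and 4 lowest after IL-4, up to 3 per gene list with the highest UT score, the 3 on each side of a threshold, and the CKIs with the most called members and the extreme medians. The sequences of cluster members were chosen after their values were seen. The nearest protein-coding start, promoters and UTRs are from the GENCODE basic annotation, and the sequences are from the RefSeq copy of the GRCm38 (mm10) assembly. No column of another series was present. Alternatives were other pseudocounts (1 and 20), no filter, other size limits, quantile normalization, single blocks of CKIs or all but 1 block, and leaving out each DMSO replicate.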

Additional observations from a re-analysis of the deposited data

Results flagged for a closer look

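The LPS and IL-4 effects on the members differed when tested directly. Members were chosen for an early LPS loss, so lower values after LPS were favoured by the choice. In CKI-treated cells 888 members (67.6%, against 22.1% of all CREs) had lower H3K27ac after LPS than after IL-4 at 30 min and 703 (53.5%, against 22.4%) at 1 h, by the limma contrast of both stimuli. The lasting losses were lower after LPS than after IL-4 in 69.6% at 30 min and 78.5% at 1 h. With IL-4 at 30 min 95 of the members were lower than UT (7.23%, against 3.78%).

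Calls in the interaction of each CKI with the early LPS change, set against the mean of the other CKIs, were most frequent for 3 CKIs, each with 1 UT library and 1 LPS library per time point, so that the spread comes from the other CKIs. PH797804 had 312 members lower (23.7%), less than the 34.1% of all CREs, and 22 lower and 82 higher with quantile normalization. Lenvatinib had 108 higher (8.22%, against 1.02%) and Talmapimod 46 higher (against 0.360%). Against their own block alone, an analysis added after the data were seen, PH797804 had 246 lower and the other 2 had 0 called members. There 213 and 146 members of Lenvatinib and Talmapimod were at an unadjusted p below 0.05. Their medians over the members were 0.38 and 0.20 against the own block, and 0.39 and 0.24 against all other CKIs. At 30 min alone, against all other CKIs, Lenvatinib had 3 members higher and 6 lower, with a median of -0.11. Talmapimod had 8 higher and 8 lower there, with a median of -0.09. The LPS 1 h library of Lenvatinib was among those that differed from the others of the second block. The own-block fit holds fewer libraries, so its lack of calls cannot be read either way, and the part of the blocks was not tested. The PH797804 library at 30 min of LPS held 172957 reads and the Talmapimod UT library 699985, and the part of depth in these differences was not tested.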

How the results depend on the processing

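The choice of members moved with the pseudocount (2079 with 1 and 734 with 20), with the DMSO replicates (1224 to 2642 when 1 library or 1 replicate number was left out, the most without replicate 2) and with a loss demanded at both 30 min and 1 h (306). Counts of calls over the 1315 members stayed within 1.5 times of the reported ones under 344 alternatives and moved further under 66. Requiring a log2 difference over 1 left 383, 156, 41 and 0 members lower after LPS at 30 min, 1 h, 2 h and 4 h and 111 and 142 higher at 2 h and 4 h, 680 higher at 4 h than at 30 min, and 424 and 259 lower after LPS than after IL-4. After IL-4 it left 0, 8, 54 and 32 lower and 60, 73, 66 and 55 higher, and in the DMSO IL-4 libraries 107 lower and 34 higher. With no size limit 1063 were lower at 1 h of LPS, 475 lower and 514 higher at 2 h, 209 lower and 687 higher at 4 h, and after IL-4 450, 395, 494 and 454 were lower and 357, 433, 416 and 431 higher. A pseudocount of 20 left 3 lower at 4 h of LPS, and quantile normalization gave 143 lower at 30 min of IL-4 and 218 lower and 383 higher pairs of member and CKI. With 30 min alone 805 such pairs were lower, and against the own block alone 77 were higher.

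Within single blocks of CKIs the later times moved most. Block 1 gave 397 lower and 118 higher at 2 h of LPS, 144 and 161 at 4 h with a median of -0.072, and after IL-4 105 higher at 30 min, 66 lower at 1 h, 159 lower and 105 higher at 2 h and 89 higher at 4 h. Without block 1, 10 were lower at 4 h. Block 2 gave 433, 100 and 35 lower at 1 h, 2 h and 4 h of LPS, and 156 and 118 lower at 2 h and 4 h of IL-4. Block 4 gave 462 and 590 higher at 2 h and 4 h of LPS, and after IL-4 144 lower at 30 min and 317 and 296 higher at 1 h and 2 h. Block 5 gave 163, 197 and 321 lower at 30 min, 1 h and 4 h of IL-4. Shares over all CREs in single blocks are not given beside these counts, so differences of the members and of whole blocks are not separated. The cause was not tested. Of named CREs 7 reversed: in block 2 Agpat3 at 30 min (0.00045) and Ep300 (0.046), Ms4a4b (0.10) and Kat6a (0.11) at 1 h, in block 1 Ep300 (-0.024) and Ffar3 (-0.21) at 4 h of LPS, and in block 6 Gm47283 (-0.19) at 1 h.

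Replicate numbers did not pair samples (correlations of deviations from -0.087 to 0.066 over 36 pairs). With the replicate block the DMSO IL-4 comparison gave 224 lower and 177 higher, and leaving out 1 library gave 176 to 222 and 120 to 197. Most CKIs had 1 library per condition, so a change in 1 CKI is known less well than the mean over CKIs.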
